A study of Mus musculus with 2 samples.

Results

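The Slc25a genes encode the mitochondrial carrier family, and their reads were described here in 2 long-read RNA-seq libraries of mouse adrenal gland. The members are the annotated protein-coding genes whose symbol begins with Slc25a. The annotation holds 47 of them, of which 39 had at least 1 read, among 16745 annotated genes with a read in all. The tissue came from wild-type C57BL/6J mice, and the labels give no treatment. The labels number the libraries as biological replicates 2 and 1 of 1 group, with separate biosamples under a shared donor entry. One label calls the mice male, while the sex field reads not collected and age and stage are given as unknown. There is no contrast between conditions, so every test below sets the reads of replicate 2 against those of replicate 1. The p-values weigh a difference against counting error only and hold no estimate of the variation between libraries. Any difference between these libraries may be technical.

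Replicate 2 held 545229 reads and replicate 1 held 848782. In this assay each read is a copy of 1 RNA molecule, so levels are CPM, read counts scaled to a common library total, without division by length. A single read is worth 1.83 CPM in replicate 2 and 1.18 CPM in replicate 1. The median read came from a transcript model of 2723 bases in replicate 2 and of 1585 bases in replicate 1. Markers of the adrenal cortex (Star and others, 6 of 6 genes read) summed to 8.21% of reads in replicate 2 and 5.57% in replicate 1, and markers of the medulla (5 of 5 read) to 2.31% and 1.01%. Within the lists the genes went both ways: Hsd3b1 of the cortex (log2 ratio of replicate 2 over replicate 1, after adding 1 CPM, -1.36) and Th (-0.93) and Pnmt (-2.11) of the medulla were lower in replicate 2, while Star (1.01) and Chgb (1.90) were higher. With the trend of ratio over transcript length subtracted (described below), 1 cortex gene was higher and 4 were lower, and 4 medulla genes were higher and 1 was lower. Of 4 adipocyte markers, 3 were read, with 23 reads in replicate 2 and 171 in replicate 1, and Ucp1 was at 0 in both. Kidney markers had 0 reads in replicate 2 and 1 in replicate 1, and the lists for striated muscle, testis and liver had 0 reads. The part of these marker differences in the results below was not tested, and in whole tissue fewer cells of a type and less RNA per cell cannot be told apart.

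Mitochondrial carriers are membrane proteins built from repeats of a shared module that alternate between a state open to the cytosol and a state open to the matrix. Most sit in the inner mitochondrial membrane and exchange a metabolite, nucleotide or ion for another, which connects the respiratory chain and the matrix pathways with the cytosol. In steroid-producing cells the first step of steroid synthesis takes place on the inner mitochondrial membrane, and citrate carried out of mitochondria is a source of acetyl-CoA for cholesterol synthesis.

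Reads of the family made up 0.404% of all reads in replicate 2 (2201 reads, exact Clopper-Pearson 95% interval 0.387% to 0.421%) and 0.572% in replicate 1 (4851 reads, 0.556% to 0.588%). The mean was 0.488% ± 0.119 (SD, n = 2). Intervals here and below cover counting error only. A single gene, Slc25a3, supplied 45.2% of the family's reads in replicate 2 and 50.2% in replicate 1. Without it the family made up 0.221% of reads in replicate 2 and 0.285% in replicate 1.

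Of the 47 genes, 34 were read in both libraries. Slc25a34 was read only in replicate 2, with 1 read. Slc25a18, Slc25a23, Slc25a35 and Slc25a42 were read only in replicate 1, with 1 to 6 reads each. No read was assigned to Slc25a2, Slc25a21, Slc25a31, Slc25a41, Slc25a43, Slc25a48, Slc25a53 or Slc25a54. A count of 0 allows up to 3 reads, which is 5.502 CPM in replicate 2 and 3.53 CPM in replicate 1, and the two-sided exact Poisson limits are 6.77 and 4.35 CPM. Slc25a31 (an ADP/ATP carrier) and Slc25a41 are known from testis.

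By mean CPM the order began with Slc25a3, Slc25a4, Slc25a39, Slc25a25, Slc25a5, Slc25a1, Slc25a30 and Slc25a11. Slc25a3 ranked first in each library, on the per-kilobase scale too, and 24 among all annotated genes by mean CPM. Its exact Poisson interval did not meet that of any other member in either library. Below it the order depended on the library: Slc25a4 was number 20 in the family in replicate 2 and 2 in replicate 1, while Slc25a30 was number 3 and 18. From the second place on, neighbours in the order differed by less than the larger of their SDs over the 2 libraries. Over the 39 genes with a read, the Spearman correlation of CPM between the libraries was 0.72, against 0.69 over all annotated genes, a description of levels that share depth and length composition within each library.

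**Figure D1:**
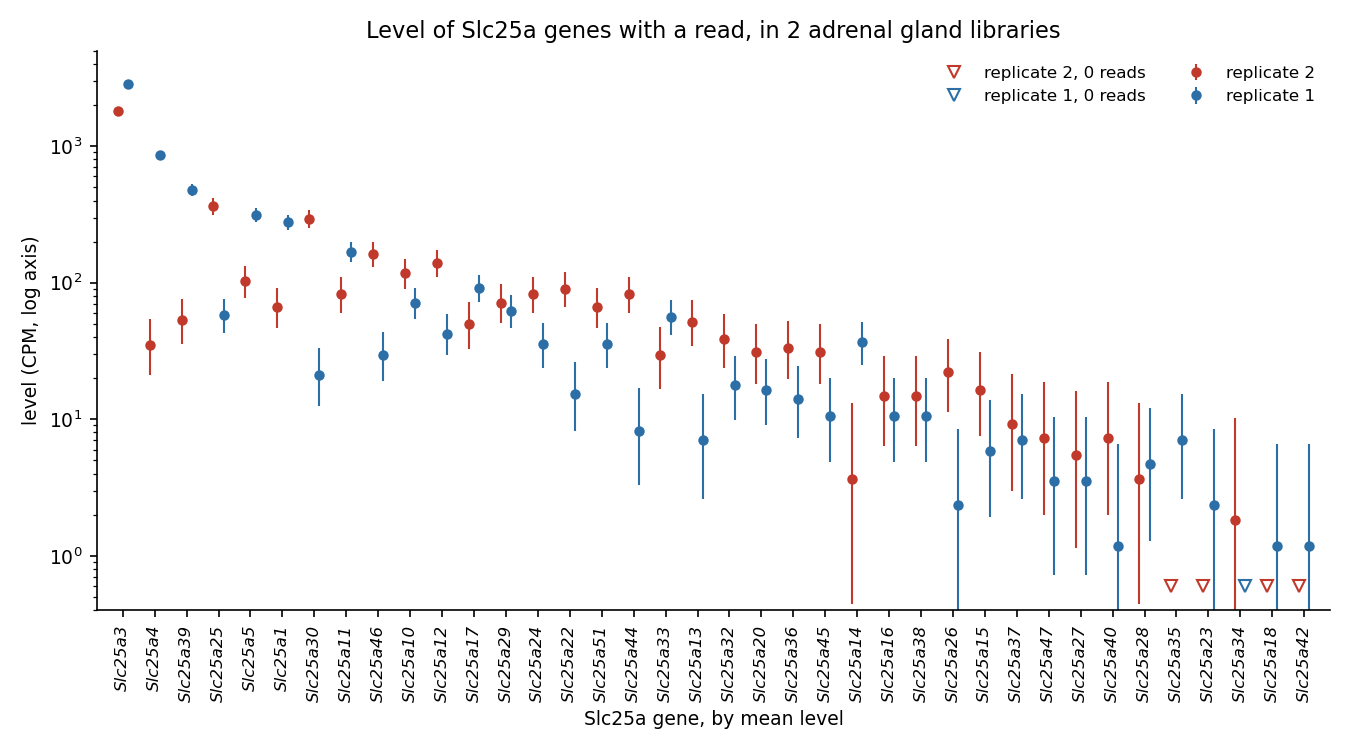
Level in CPM (log axis) of 38 Slc25a genes with a read, ordered by mean level, with replicate 2 in red left of replicate 1 in blue. Bars are exact Poisson 95% intervals that cover counting error only, and open triangles mark 0 reads. Slc25a3 lies above all others in both libraries with 1823 CPM (replicate 2) and 2870.0 CPM (replicate 1).

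Between the libraries, 30 members had at least 10 reads summed and were tested with Fisher's exact test, adjusted over all 9879 such genes. In replicate 2, 14 of them stood higher and 9 stood lower, and 7 missed the threshold. That is 76.7% of the tested members, against 64.4% of all genes tested. The share called higher was 46.7% (36.6% of all genes) and the share called lower 30.0% (27.9% of all genes). The median log2 ratio of replicate 2 over replicate 1, after adding 1 CPM, was 0.80 over the tested members and 0.38 over all tested genes. The other 9 members with reads had 1 to 7 reads and were not tested.

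Ratio and transcript length went together. Of the 9 members that were lower in replicate 2, 8 had a known transcript, of 1240 to 1925 bases (median 1698), and those that were higher had 1922 to 6351 bases (median 3504). All genes behaved alike, with a median length of 1366 bases for the lower and 3156 for the higher calls. The Spearman correlation of log2 ratio and length was 0.63 over 29 members and 0.55 over 9166 genes, in which all points share the same library pair. With the running median over genes of like length subtracted, 11 of 29 members were higher and 4 were lower in an exact binomial test, against 41.8% of all genes called either way (20.2% higher and 21.5% lower). The same call with and without this subtraction was made for 11 members. Under TMM and under DESeq2 scaling 9 members were higher and 10 lower.

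**Figure D2:**
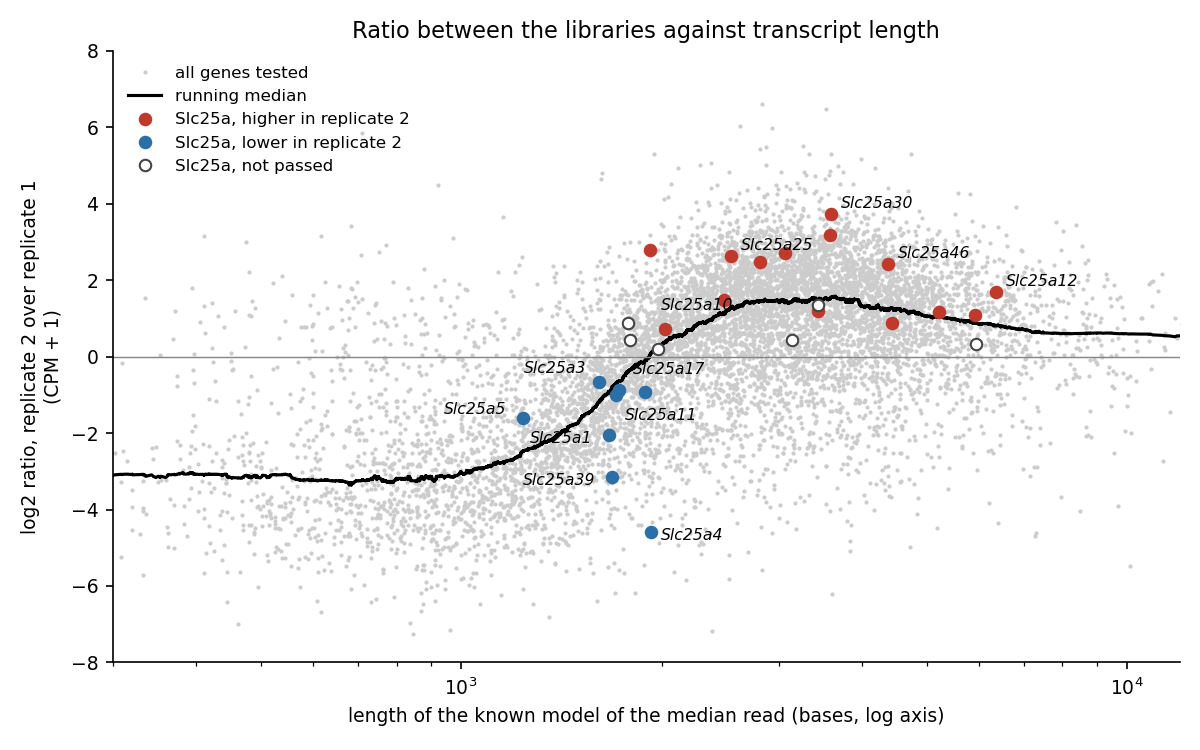
Log2 ratio of replicate 2 over replicate 1 (CPM + 1) against transcript length in bases (log axis). Grey points are all genes tested, the black line is the running median over genes of like length, and large points are the Slc25a genes. Genes under the line, such as Slc25a4 at -4.58 and Slc25a39 at -3.15, were lower in replicate 2 than genes of like length.

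Slc25a3 is the phosphate carrier, which brings inorganic phosphate into the matrix for ATP synthesis. The gene lies at chr10:91116574-91124059 on the minus strand of mm10. It had 994 reads in replicate 2 and 2436 in replicate 1, which is 1823 CPM (exact Poisson 95% interval 1712 to 1940.0) and 2870.0 CPM (2757 to 2986). The log2 ratio was -0.65 (adjusted p = 3.43e-34, Fisher's exact test). With the length trend subtracted the direction turned, to 0.54 (adjusted p = 7.13e-21, exact binomial test).

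The gene has an annotated pair of alternative exons 3. In humans and cattle, exon 3A is known as the form of heart and skeletal muscle and exon 3B as that of other tissues. Both are shown because the forms of Slc25a3 turn on this stretch. They are the minus strand of mm10, read from GENCODE M21 transcripts, with the exon in capitals and 25 intronic bases in lower case on each side, at chr10:91122182-91122356 and chr10:91121897-91122068.
exon 3A: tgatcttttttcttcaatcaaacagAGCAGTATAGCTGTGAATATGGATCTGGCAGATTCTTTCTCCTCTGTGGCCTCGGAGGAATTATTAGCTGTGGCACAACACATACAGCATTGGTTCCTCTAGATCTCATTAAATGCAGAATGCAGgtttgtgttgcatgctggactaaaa
exon 3B: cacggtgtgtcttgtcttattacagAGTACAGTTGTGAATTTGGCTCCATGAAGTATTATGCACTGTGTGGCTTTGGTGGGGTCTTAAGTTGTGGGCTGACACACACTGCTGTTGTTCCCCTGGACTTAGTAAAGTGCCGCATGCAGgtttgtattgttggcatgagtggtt
The exons are 125 and 122 bases long and shared 80 of 126 aligned positions (63.5%).

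Exon 3B was the form read in the adrenal gland. Among spliced reads with a single exon 3, exon 3A had 0 of 262 reads in replicate 2, which allows up to 1.40% at the upper end of the exact interval. In replicate 1 it had 8 of 2121 reads, 0.377% (0.163% to 0.742%). Reads that joined both exons were more frequent than exon 3A alone, with 8 reads in replicate 2 and 39 in replicate 1. From the start codon, the forms with exon 3B and with exon 3A run for 1074 and 1077 coding bases up to and with the stop codon. With both exons joined, a stop codon is met after 297 bases.

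The libraries differed in what lay between exon 2 and exon 3B. The 1514-base intron (chr10:91122044-91123557), which contains exon 3A, was retained in 654 of 921 informative reads in replicate 2, or 71.0%. In replicate 1 it was retained in 185 of 2319, or 7.98%. The adjusted p was 1.06e-282 in Fisher's exact test over 1134 introns of all genes, of which 44.9% were called and 39.4% were higher in replicate 2. By the size of the difference this intron ranked 16 among the 1134. An annotated transcript has the same stretch unspliced and is classed in GENCODE as a retained intron. Reading on from exon 2 into the retained stretch, a stop codon follows within 279 coding bases.

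Classed by the whole stretch from exon 2 to exon 4, 648 of 969 reads in replicate 2 (66.9%, 63.8% to 69.8%) retained it up to exon 3B, against 183 of 2388 in replicate 1 (7.66%, 6.63% to 8.80%). Exon 3B spliced on both sides made up 262 reads in replicate 2 (27.04%) and 2113 in replicate 1 (88.5%). The median model length was 3024 bases for the retained form and 1612 bases for the spliced form. The retained form had 1188 CPM in replicate 2, against 216 CPM in replicate 1, a log2 ratio of 2.46 where the running median for genes of that length was 1.46. The spliced form had 481 CPM in replicate 2, against 2489 CPM in replicate 1, a log2 ratio of -2.37 where the running median was -1.20. Both forms thus lay farther from 0 than the median gene of their length, in opposite directions. The part of length in this difference was not tested beyond these values.

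Intron 1, of 209 bases, was retained in 278 of 935 reads in replicate 2 (29.7%) and 284 of 2291 in replicate 1 (12.4%, adjusted p = 6.11e-28, Fisher's exact test). An annotated transcript carries it. With known, NIC (unannotated combinations of known splice sites) and NNC (an unannotated splice site) models only, and so without incomplete matches to annotated transcripts, the call was lost and the direction turned, at 7.34% in replicate 2 and 8.61% in replicate 1 (adjusted p = 0.435, Fisher's exact test). The read counts that follow include the incomplete matches. Among reads that retained the stretch, intron 1 was retained in 225 and spliced in 404 in replicate 2, and retained in 89 and spliced in 94 in replicate 1. Among reads with exon 3B alone, it was retained in 19 and spliced in 228 in replicate 2, and retained in 152 and spliced in 1867 in replicate 1. Reads with both exons 3 mostly retained it, 6 against 2 in replicate 2 and 29 against 10 in replicate 1.

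**Figure D3:**
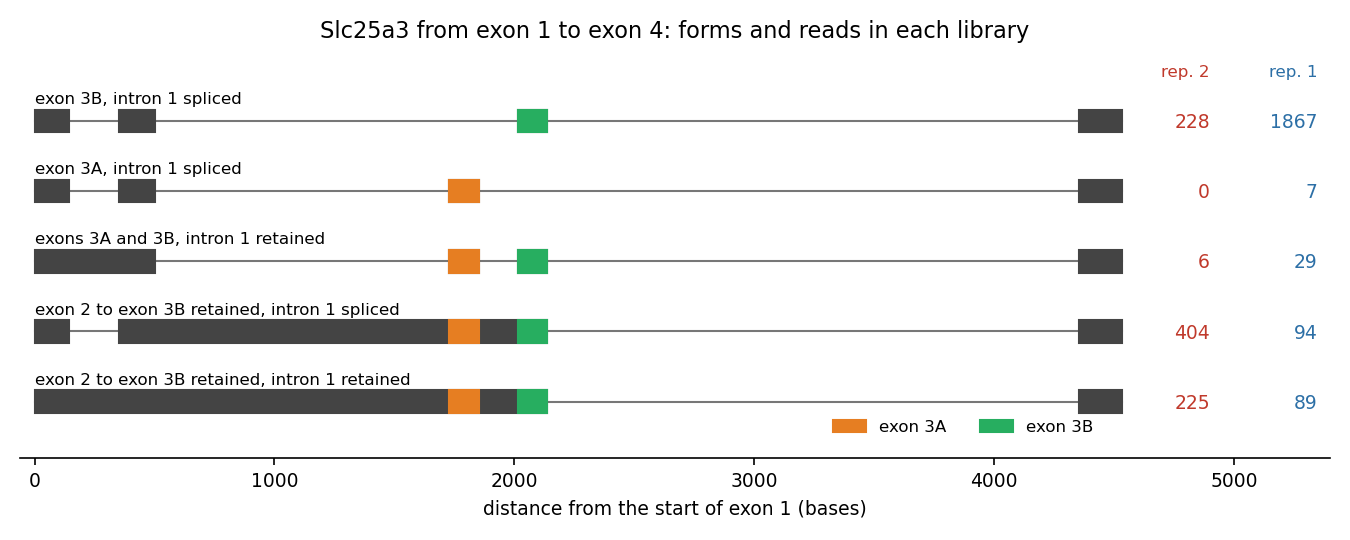
Slc25a3 from exon 1 to exon 4, drawn to scale as distance in bases from the start of exon 1, with exon 3A in orange, exon 3B in green and other exonic or retained sequence in dark grey. The reads of each form stand at the right, replicate 2 before replicate 1. The spliced exon 3B form has 228 reads in replicate 2 and 1867 in replicate 1, and the forms that retain the stretch from exon 2 to exon 3B have 404 and 225 in replicate 2 against 94 and 89 in replicate 1.

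The main annotated transcript made up 29.7% of the Slc25a3 reads in known models, in unannotated combinations of known splice sites (NIC) or with an unannotated splice site (NNC) in replicate 2 and 80.0% in replicate 1 (adjusted p = 4.94e-136, Fisher's exact test over 2251 genes, of which 9.51% were called, 3.24% higher and 6.26% lower). Within known models alone it made up 86.9% in replicate 2 and 91.3% in replicate 1, and the call was lost (adjusted p = 0.256, Fisher's exact test). Of all Slc25a3 reads, 26.2% in replicate 2 and 83.0% in replicate 1 lay in known models. NIC models held 45.0% in replicate 2 and 8.78% in replicate 1. Incomplete matches to an annotated transcript (ISM) held 23.2% and 4.93%.

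Across the family, 56.3% of reads in replicate 2 and 83.7% in replicate 1 were in known models. Over all annotated genes the shares were 75.3% and 76.7%. Without Slc25a3 the family stood at 81.1% in replicate 2 and 84.4% in replicate 1, above all annotated genes in each library.

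Retained introns with at least 20 reads in each library numbered 13 in 4 members. Of these, 7 were higher in replicate 2 (6 of them overlapping introns of Slc25a3) and 0 were lower, against 39.4% of all tested introns called higher and 5.47% called lower. The Slc25a3 calls lie either between exon 2 and exon 3B or at intron 1. Within each place they rest largely on the same reads, so they are not separate events. The remaining call was a 277-base intron of Slc25a10, retained in 11 of 61 reads in replicate 2 (18.0%) and 2 of 53 in replicate 1 (3.77%, adjusted p = 0.0434, Fisher's exact test). In Slc25a1 and Slc25a17, 4 introns were retained in 5.71% to 11.4% of reads in replicate 2 and 1.23% to 3.95% in replicate 1 and did not pass. No exon of a member met the criteria for an alternative exon, against 690 exons of all genes that did, of which 3.48% differed between the libraries (3.04% higher and 0.435% lower). At splice sites within 50 bases of each other, 1 pair in Slc25a3 was tested and did not pass (0.83% of 482 pairs called, 0.207% higher and 0.622% lower).

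**Figure D4:**
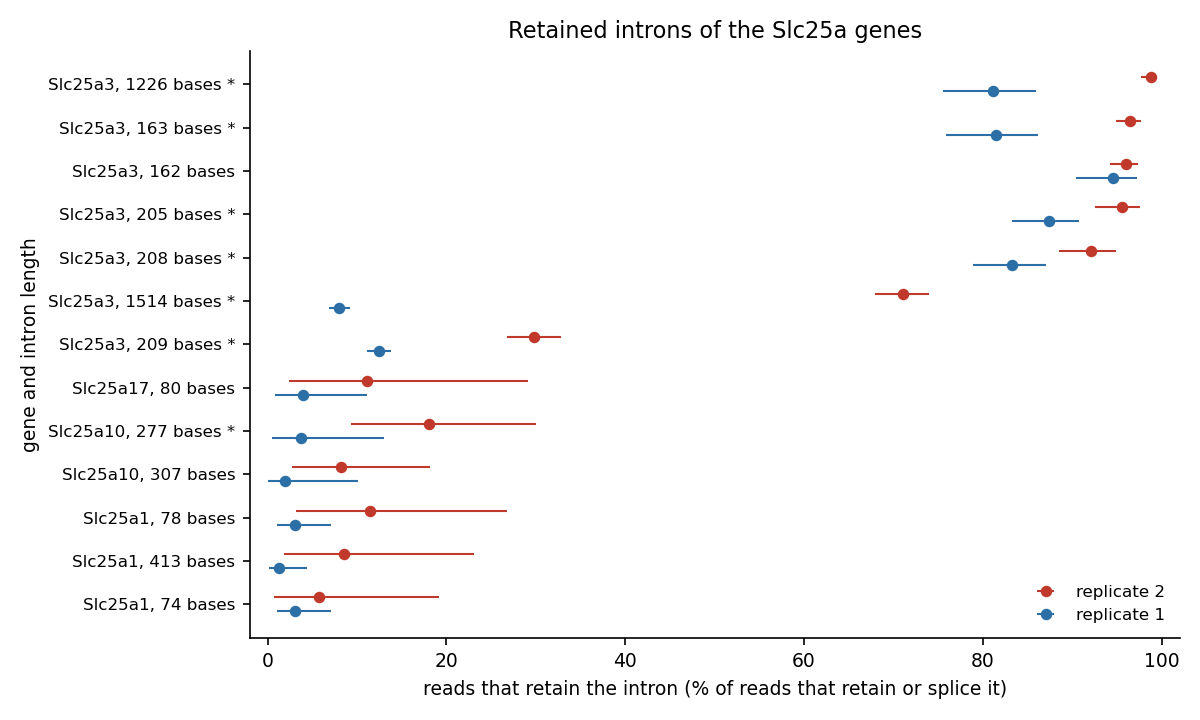
Share of reads that retain each of the 13 tested introns of Slc25a genes, in percent of the reads that retain or splice it, with replicate 2 in red above replicate 1 in blue and exact 95% intervals. Stars mark the 7 introns that passed Fisher's exact test. The 1514-base intron of Slc25a3 stands apart at 71.0% in replicate 2 and 7.98% in replicate 1.

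The ADP/ATP carriers bring ATP out of the matrix in exchange for ADP. Both members with reads were lower in replicate 2, against 27.9% of all genes tested. Slc25a4 (chr8:46206797-46211284), the form known from heart and skeletal muscle, had 19 reads in replicate 2 and 726 in replicate 1, or 34.8 and 855 CPM. The log2 ratio of -4.58 (adjusted p = 2.55e-125, Fisher's exact test) was not met by another member, and it was -4.64 with the length trend subtracted. Its known transcript of 1925 bases with 4 exons held 17 of the 19 reads in replicate 2 and 707 of the 726 in replicate 1. Slc25a5 (chrX:36795651-36798807), the more widely expressed form, had 56 reads in replicate 2 and 267 in replicate 1, or 103 and 315 CPM. Its log2 ratio was -1.61 (adjusted p = 2.50e-16, Fisher's exact test), and 0.87 with the length trend subtracted. The library that held more Slc25a4 than Slc25a5 was replicate 1, and in replicate 2 the order was reversed. A single-exon model that spans nearly the whole Slc25a5 gene, 3154 bases, had 29 reads in replicate 1, and all unspliced models of the gene together had 2 reads in replicate 2. The related locus Slc25a5-ps had 0 reads in both libraries.

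The ATP-Mg/phosphate carriers exchange ATP-Mg for phosphate under the control of calcium and set the adenine nucleotide content of the matrix. Both tested members, Slc25a25 and Slc25a24, were higher in replicate 2, against 36.6% of all genes tested. Slc25a25 (chr2:32414487-32451445) had 198 reads in replicate 2 and 49 in replicate 1, or 363 and 57.7 CPM, which made it number 2 of the family in replicate 2. The log2 ratio was 2.63 (adjusted p = 2.01e-38, Fisher's exact test) and 1.36 with the length trend subtracted. Slc25a24 had 45 reads in replicate 2 and 30 in replicate 1, with a log2 ratio of 1.20 (adjusted p = 7.27e-04, Fisher's exact test) that no longer passed after subtraction of the trend, at -0.29.

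Slc25a25 was read from separate first exons, each with its own start codon, so its transcripts differ in the coded amino-terminal end. The transcript from the downstream start codes over 1407 bases, and that from the upstream start, 27440 bases away, over 1506 bases. The coding part of each first exon is given from GENCODE M21 on mm10, minus strand, with the start codon in capitals, at chr2:32423794-32423952 and chr2:32451067-32451324.
Slc25a25 downstream start: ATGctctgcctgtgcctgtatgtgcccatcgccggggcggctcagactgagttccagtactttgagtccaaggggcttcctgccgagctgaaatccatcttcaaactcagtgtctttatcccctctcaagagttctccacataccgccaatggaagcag
Slc25a25 upstream start: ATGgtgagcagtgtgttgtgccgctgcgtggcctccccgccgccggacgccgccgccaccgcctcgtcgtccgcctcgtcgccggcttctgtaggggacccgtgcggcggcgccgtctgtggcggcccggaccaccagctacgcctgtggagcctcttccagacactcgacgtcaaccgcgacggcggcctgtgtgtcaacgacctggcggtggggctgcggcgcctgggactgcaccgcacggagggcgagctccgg
The downstream first exon had 108 of 185 reads in replicate 2 (58.4%, 50.9% to 65.6%) and 30 of 38 in replicate 1 (78.9%, 62.7% to 90.4%). The upstream first exon had 71 in replicate 2 (38.4%) and 4 in replicate 1 (10.5%). The difference for the main first exon did not pass (adjusted p = 0.0971, Fisher's exact test over 586 genes, of which 15.5% were called, 6.14% higher and 9.39% lower). The median model length was 2541 bases from the downstream start and 3278 bases from the upstream start.

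The letters upstream of both starts differ as well. The 250 bases before each RefSeq start are given on GRCm38.p6, minus strand, at chr2:32424067-32424316 for the downstream start and chr2:32451471-32451720 for the upstream start. Capitals mark matches on either strand to TGACGTCA (the cyclic AMP response element, CRE) or to its part TGACG. They also mark the CCAAT box, searched by these letters, and the GC box, searched as GGGCGG.
before the downstream start: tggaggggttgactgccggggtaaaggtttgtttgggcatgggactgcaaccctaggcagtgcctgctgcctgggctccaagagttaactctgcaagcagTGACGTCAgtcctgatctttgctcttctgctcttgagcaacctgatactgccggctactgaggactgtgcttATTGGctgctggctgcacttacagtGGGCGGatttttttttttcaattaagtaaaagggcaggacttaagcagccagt
before the upstream start: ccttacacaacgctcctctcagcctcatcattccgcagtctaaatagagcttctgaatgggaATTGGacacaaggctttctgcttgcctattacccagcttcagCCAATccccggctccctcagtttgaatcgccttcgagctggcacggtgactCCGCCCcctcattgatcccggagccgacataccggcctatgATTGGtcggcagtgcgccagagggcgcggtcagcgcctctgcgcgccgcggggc
The full CRE stands 150 bases before the downstream start, where TGACG matches on each strand lie inside it, and is not in the upstream window. It occurs in 588 of 32851 RefSeq promoters, taken from 250 bases before to 50 after each start (1.79%), among them 2 of the 46 promoters given for 36 Slc25a genes, those of Slc25a25 and Slc25a36. CCAAT on either strand occurs once in the downstream window and 3 times in the upstream one, and in 37.4% of all promoters. GGGCGG occurs once in each and in 35.7% of all promoters. A match of letters is a description and shows no binding.

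**Figure D5:**
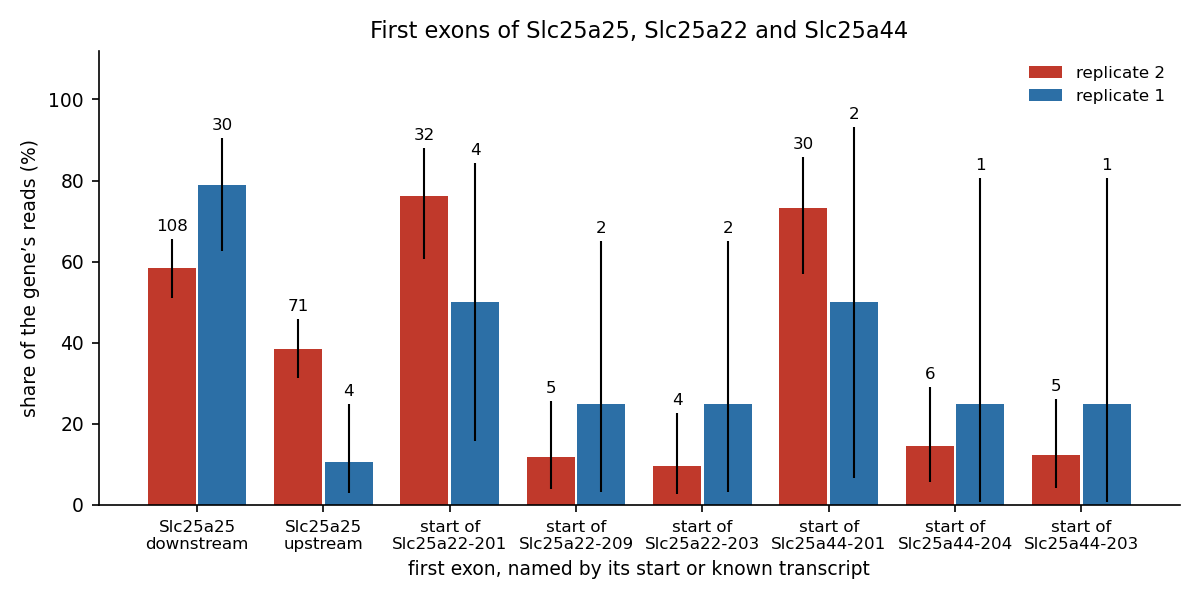
Share of reads (percent) of each first exon of Slc25a25, Slc25a22 and Slc25a44 that had at least 5 reads, replicate 2 in red left of replicate 1 in blue, with exact 95% intervals and the reads above each bar. The upstream start of Slc25a25 had 71 of 185 reads in replicate 2 and 4 of 38 in replicate 1.

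Among the di- and tricarboxylate carriers, 1 was higher in replicate 2 and 2 were lower (36.6% and 27.9% of all genes tested). Slc25a1 (chr16:17925223-17928219), the citrate carrier, had 36 reads in replicate 2 and 235 in replicate 1, or 66.0 and 277 CPM. The log2 ratio was -2.05 (adjusted p = 7.65e-20, Fisher's exact test) and -1.15 with the length trend subtracted. The gene had an unspliced 460-base model at its 3′ end (chr16:17925223-17925682) with 69 reads in replicate 1, 29.4% of the gene, and the gene had 0 unspliced reads in replicate 2. Of known, NIC and NNC reads, the main transcript held 28 of 35 in replicate 2 (80.0%) and 154 of 161 in replicate 1 (95.7%, adjusted p = 0.0468, Fisher's exact test). This was the only call of a main model besides Slc25a3 among 13 members tested, and it was lost with other read minimums.

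Slc25a11, the oxoglutarate/malate carrier, had 45 reads in replicate 2 and 142 in replicate 1, with a log2 ratio of -1.01 (adjusted p = 4.59e-05, Fisher's exact test). With the length trend subtracted it was -0.33 and did not pass. The 5′ ends of Slc25a11 and Rnf167, on the opposite strand, overlap in the annotation. Slc25a10, the dicarboxylate carrier, had 64 reads in replicate 2 and 60 in replicate 1, or 117 and 70.7 CPM. Its log2 ratio of 0.72 (adjusted p = 0.0101, Fisher's exact test) did not pass with the length trend subtracted (0.35), nor under TMM scaling (0.29).

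All 3 tested aspartate and glutamate carriers were higher in replicate 2. Slc25a12, which exchanges matrix aspartate for glutamate as a step of the malate-aspartate shuttle, had 76 reads in replicate 2 and 36 in replicate 1. Its log2 ratio was 1.69 (adjusted p = 4.92e-09, Fisher's exact test) and 0.89 with the length trend subtracted, for a transcript of 6351 bases. Slc25a13, its close relative known from liver, had 28 reads in replicate 2 and 6 in replicate 1 (log2 ratio 2.70). Slc25a22, a glutamate carrier, had 49 and 13 reads (log2 ratio 2.48). All 3 were called higher after subtraction of the trend as well, Slc25a13 only just. The adjusted p was 5.43e-03 for Slc25a12, 0.0487 for Slc25a13 and 0.0301 for Slc25a22 (exact binomial test).

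Slc25a13 was read mostly with an acceptor that its GENCODE M21 transcripts lack. The authors' model classes differ from this in part. In replicate 2, 16 of the gene's 28 reads lay in NIC models, which by definition hold known splice sites, and 2 in NNC models. In replicate 1, 1 of 6 lay in NIC models and 4 in NNC models. The disagreement was not resolved. Its more used acceptor lies 3 bases into the annotated exon, so that 1 codon is left out. The unannotated site had 19 of 27 reads in replicate 2 and 5 of 6 in replicate 1, and the annotated site 8 and 1. The junctions are given from GENCODE M21 on mm10 (chr6, minus strand), with the last 12 bases of the preceding exon in lower case and the start of the next exon in capitals, from 6110024 for the annotated and from 6110021 for the unannotated site.
annotated acceptor: gcccagaggcagCAGAAGGCCTCGGGT
unannotated acceptor: gcccagaggcagAAGGCCTCGGGT
With so few reads in replicate 1, no difference between the libraries was detectable.

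Among 4 tested carriers of other amino acids, 1 was higher in replicate 2 (36.6% of all genes tested). Slc25a44, which in mice imports branched-chain amino acids, had 45 reads in replicate 2 and 7 in replicate 1 (log2 ratio 3.18, adjusted p = 1.08e-11, Fisher's exact test). Slc25a29, a carrier of basic amino acids, had 39 and 53 reads and a log2 ratio of 0.19, the nearest to 0 among the members tested, with 71.5 CPM in replicate 2 and 62.4 CPM in replicate 1. The mean was 67.0 ± 6.43 CPM (SD, n = 2). Slc25a15, an ornithine carrier, and Slc25a38, a glycine carrier needed for heme synthesis, had 14 and 17 reads summed and did not pass.

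Cofactors or pyrimidine nucleotides are carried by 9 members. Of 8 tested, 4 were higher in replicate 2 and 2 lower (36.6% and 27.9% of all genes tested). The sum of the 9 members was alike in the libraries, 290 CPM in replicate 2 and 291 CPM in replicate 1. Slc25a17, a carrier of the peroxisome membrane, had 27 reads in replicate 2 and 78 in replicate 1, or 49.5 and 91.9 CPM. Its log2 ratio of -0.88 (adjusted p = 8.99e-03, Fisher's exact test) became -0.23 with the length trend subtracted and did not pass. Slc25a33, a pyrimidine nucleotide carrier, was lower with a log2 ratio of -0.92, which became -0.79 with the length trend subtracted and did not pass. Slc25a26 (S-adenosylmethionine), Slc25a32 (known in humans for flavin and folate), Slc25a36 (pyrimidine nucleotides) and Slc25a51 (NAD) were higher, with log2 ratios of 0.88 to 2.78. Of these 4, Slc25a26 alone stayed higher with the length trend subtracted, at 2.73, from 12 reads in replicate 2 and 2 in replicate 1.

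Of the iron and glutathione carriers, Slc25a39 dominated. It is known to import glutathione into mitochondria, lies at chr11:102402985-102407946, and had 29 reads in replicate 2 and 407 in replicate 1, or 53.2 and 480 CPM. The log2 ratio was -3.15 (adjusted p = 2.72e-53, Fisher's exact test) and -2.34 with the length trend subtracted, for a transcript of 1685 bases with 12 exons. Its isoform use did not pass, with the main transcript at 96.6% in replicate 2 and 96.9% in replicate 1. Its paralog Slc25a40 had 4 reads in replicate 2 and 1 in replicate 1. The mitoferrins Slc25a37 and Slc25a28, which import iron, had 5 and 2 reads in replicate 2 and 6 and 4 in replicate 1. All 6 reads of Slc25a28 were unspliced.

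The relatives of the uncoupling proteins went in different directions. Slc25a30, known as kidney mitochondrial carrier, had 160 reads in replicate 2 and 18 in replicate 1, or 293 and 21.2 CPM (chr14:75760117-75787037). Its log2 ratio of 3.73 (adjusted p = 3.62e-44, Fisher's exact test) was the highest of the members tested and remained 2.21 with the length trend subtracted. Known models, led by 1 of 3588 bases, held 146 of the reads in replicate 2 and 6 in replicate 1. Slc25a14 had 2 reads in replicate 2 and 31 in replicate 1 (log2 ratio -3.01, adjusted p = 1.03e-04, Fisher's exact test). None of its reads lay in a known model, and 21 of the 31 in replicate 1 formed 1 incomplete match of 10 exons and 1522 bases. Slc25a27 had 3 reads in each library.

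Slc25a46, which sits in the outer membrane and takes part in mitochondrial fusion and fission, had 88 reads in replicate 2 and 25 in replicate 1, or 161 and 29.5 CPM. The log2 ratio was 2.41 (adjusted p = 4.14e-16, Fisher's exact test) and 1.15 with the length trend subtracted, for a transcript of 4371 bases. Slc25a20, which carries acylcarnitines for fatty acid oxidation, had 17 reads in replicate 2 and 14 in replicate 1 and did not pass. With the length trend subtracted it was called higher, at 1.28. Of 8 members without a substrate given here, Slc25a45 was tested and was higher, with 17 reads in replicate 2 and 9 in replicate 1 (log2 ratio 1.47, adjusted p = 0.0144, Fisher's exact test). The call was lost with the length trend subtracted (0.33) and under TMM scaling.

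Most of the 13 members tested for their main model were read mainly as 1 transcript, and the others had too few reads for this test. In the 13 members with at least 20 known, NIC or NNC reads in each library, the most read model over both libraries was an annotated transcript. In replicate 2 alone, an unannotated NIC model of Slc25a3 with 379 reads stood ahead of the annotated one with 226. Outside Slc25a3 it held 56.2% to 97.1% of such reads in replicate 2 and 78.9% to 98.0% in replicate 1, with Slc25a25 the lowest in both. Over the 31 members whose most read known model is protein-coding, that model coded over a median of 945 bases (243 to 2031). Whole transcripts of the tested members ran from 1240 to 6351 bases.

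Genes that act beside the carriers were mostly lower in replicate 2. Of 15 other carriers and channels, 11 were tested, with 1 higher, 7 lower and 3 short of the threshold (36.6% and 27.9% of all genes higher and lower). The outer-membrane channel Vdac1 was higher, with 126 reads in replicate 2 and 38 in replicate 1. The pyruvate carrier subunits Mpc1 and Mpc2 were lower, with 7 and 4 reads in replicate 2 against 200 and 167 in replicate 1, and Mpc1 had a transcript of 555 bases. Of 10 genes that insert carriers into the inner membrane, 3 were higher (Tomm70a, the receptor, Timm29 and Agk) and 7 were lower, among them the small chaperone genes Timm9 and Timm10. With the length trend subtracted, 1 of the other carriers was higher and 6 lower, and 2 of the insertion genes were higher and 3 lower, against 20.2% and 21.5% of all genes.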

How the data were processed

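The authors deposited raw counts of reads for every transcript model, 1 table a library, with the exons of each model. The text file beside them names mm10 and GENCODE M21, and attributes in the deposited annotation name TALON. Platform and aligner: not given in the sources used here. Models are classed by the authors as known, ISM, NIC, NNC (an unannotated splice site), genomic or antisense.

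From these counts, reads were summed per gene with Python 3.11.15, pandas 2.3.3 and SciPy 1.17.1. Each gene with at least 10 reads summed was set against the rest of its library by Fisher's exact test, two-sided, and p-values were adjusted by Benjamini-Hochberg at 0.05. Scaling by edgeR 4.0.16 (TMM) or DESeq2 1.42.0 and a running median over length were tested with a two-sided exact binomial test. An event needed 20 reads in each library, 5 reads of the rarer form and a share of 5% of it. Sequence identity came from a global alignment in Biopython 1.88. RefSeq gave promoters for 36 of 47 members. The tests were tried on simulated reads with set changes and counting error only. That simulation held no length trend and no variation between libraries, so it does not cover those features of these data.

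Members, lists and tests were chosen with earlier results of these data known, and retained introns, splice sites and first exons were added after seeing the data. Every member with at least 100 reads summed, a tested main model, or 0 reads in a library is named, and others are given by range or in examples. The results of 1 member are not reported here, and it is left out of the plots of levels and of ratio against length, but counts and sums over the members include it.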

Additional observations from a re-analysis of the deposited data

Results flagged for a closer look

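Unannotated models on the strand opposite to a member were not used in the comparisons above. At 2 loci their reads exceeded the 3 reads that a count of 0 allows. Antisense to Slc25a46, 3 reads were seen in replicate 2 and 19 in replicate 1, of which 0 and 4 were spliced. The gene itself had 88 sense reads in replicate 2 and 25 in replicate 1, so that sense and antisense differed in opposite directions. Antisense to Slc25a36, 1 read was seen in replicate 2 and 11 in replicate 1, none of them spliced. They began 35592 bases past the start of the gene, which is 36197 bases long. Over all members, 15 loci had such reads, 19 in replicate 2 and 46 in replicate 1. No difference between the libraries was tested here.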

How the results depend on the processing

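No paired analysis was possible because the series has 1 group of 2 libraries. For the 12 genes with at least 100 reads, 84 alternative ratios were computed: 77 kept direction and call, 5 lost the call and 2 reversed. The 77 include the ratios with 0.5 or 5 CPM added in place of 1 CPM. The added CPM does not enter the test, so those ratios could change neither call nor direction. The reversals were Slc25a3 (0.54) and Slc25a5 (0.87), both with the length trend subtracted. For Slc25a3 that trend was taken at the length of its known models, while most of its replicate 2 reads lay in other models. Of 23 members called, 15 were called with that trend subtracted, and 17 to 20 under TMM, DESeq2, no read minimum or known models only. The share called higher among calls was 60.9%, against 73.3% after subtraction of the trend and 47.4% by TMM or DESeq2. These 2 scalings moved the median of all genes to -0.06 and -0.07. The family's share of 0.488% became 0.353% with known models only and 0.253% without Slc25a3, and it was 0.404% in replicate 2 and 0.572% in replicate 1 alone. The share of its reads in known models was 56.3% and 83.7% in those libraries alone, for a mean of 70.0%. Exon 3A of Slc25a3 stood at 0% and 0.377%. Main model calls numbered 2, against 0 with known models only (Slc25a3 and Slc25a1 both lost), 1 with at least 10 reads and 1 with at least 50, and the call lost at each read minimum was that of Slc25a1. Retained introns called numbered 7, and 5 with known, NIC and NNC models only, where intron 1 of Slc25a3 lost its call while the 1514-base intron kept it, and 14 with at least 10 reads, where 7 introns of Slc25a22 were lower in replicate 2, each resting on 4 retaining reads in replicate 1. The cause was not tested. Depth limits members with under 10 reads, for which no difference was detectable.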

Other observations

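Among the 46 RefSeq promoters given for 36 members, GGGCGG on either strand was found in 38 (82.6%), against 35.7% of all 32851. CCGGAAG was found in 7 (15.2%, against 8.86%), CCAAT in 22 (47.8%, against 37.4%), and the NRF1 core motif in none (0.971% of all). These are counts of letters, with no test.

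Splice sites 4 bases from an annotated one recurred in Slc25a3: 5 of its introns had such an unannotated partner, used in 0.306% to 2.04% of reads in replicate 2 and 0.248% to 2.00% in replicate 1.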
